A study of Mus musculus with 8 samples.

Results

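The genes described here encode the proteins of the cytosolic ribosome in mouse hematopoietic stem cells (HSCs), which renew themselves and give rise to every type of blood cell. They were chosen by name: protein-coding genes whose symbol is Rpl or Rps with a number and at most a short suffix, plus Rplp0, Rplp1, Rplp2 and Rpsa. The rule found 83 of the 50686 gene IDs in the table, of which 46 encode proteins of the large (60S) subunit, 31 encode proteins of the small (40S) subunit, and 6 are paralogs with an l in their suffix (Rpl22l1, Rpl39l, Rpl3l, Rpl7l1, Rpl10l and Rps27l). All but Rpl10l, which was listed at 0 in every library, passed the filter on low counts, so 82 were tested. RNA was sequenced from HSCs of C57BL/6J mice sorted by size into Large, Medium and Small cells, with HSCs not separated by size (All) for comparison, and 2 libraries per group. Large and Small were the upper and lower 10% of the size distribution by light scatter, and Medium lay within 10% of the mean size. A library was made from 10000 cells gated to the G0/1 phase with a low-input cDNA kit. The labels name no transgene or treatment for these 8 libraries. They give neither the age of the mice nor whether the libraries of a group came from separate animals or pools, so the spread behind the p-values may be technical.

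Each ribosome holds 1 copy of nearly every one of these proteins, together with the ribosomal RNAs, and the proteins are made in matched amounts for assembly in the nucleolus. Their mRNAs begin with a run of pyrimidines, the 5′ terminal oligopyrimidine tract, through which the kinase mTOR and the protein LARP1 set how well they are translated. Their genes are known for strong transcription from promoters without a TATA box. Loss of 1 copy of several of them, among them RPS19 and RPL11 in humans, causes Diamond-Blackfan anemia, a failure of red cell production.

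The promoters of 6 members that the results turn on are shown first, each from 100 bases before to 30 bases from the start site of transcription, so that the start is the first base after the first 100. They are RefSeq sequences of the build GRCm38.p6. Rplp2 (chr7:141447551-141447680, plus strand) and Rps21 (chr2:180257279-180257408, plus) had among the largest differences between Large and Small in their subunit. Rps27 (chr3:90213619-90213748, minus) had the smallest in its subunit, and Rps27l (chr9:66945986-66946115, plus) is its paralog. Rpl22 (chr4:152325626-152325755, plus) and Rpl22l1 (chr3:28805408-28805537, plus) are a main gene and a paralog with the higher transcript level of the pair. Capitals mark the ETS factor core CCGGAAG, the YY1 core AAGATGGC, or a run of at least 8 pyrimidines within 20 bases before to 30 bases after the start.
Rplp2: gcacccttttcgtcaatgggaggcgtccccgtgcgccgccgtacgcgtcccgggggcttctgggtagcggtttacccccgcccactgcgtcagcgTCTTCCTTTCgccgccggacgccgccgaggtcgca
Rps21: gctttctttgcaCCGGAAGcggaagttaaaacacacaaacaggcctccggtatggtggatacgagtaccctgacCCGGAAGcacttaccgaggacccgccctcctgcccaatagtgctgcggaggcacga
Rps27: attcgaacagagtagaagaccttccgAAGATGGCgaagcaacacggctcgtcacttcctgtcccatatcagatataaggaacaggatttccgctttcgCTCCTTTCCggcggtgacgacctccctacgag
Rps27l: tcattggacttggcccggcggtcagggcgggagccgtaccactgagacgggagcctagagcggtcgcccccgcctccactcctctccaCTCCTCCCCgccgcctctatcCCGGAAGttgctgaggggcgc
Rpl22: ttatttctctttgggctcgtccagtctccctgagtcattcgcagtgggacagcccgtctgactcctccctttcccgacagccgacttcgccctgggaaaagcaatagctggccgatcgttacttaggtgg
Rpl22l1: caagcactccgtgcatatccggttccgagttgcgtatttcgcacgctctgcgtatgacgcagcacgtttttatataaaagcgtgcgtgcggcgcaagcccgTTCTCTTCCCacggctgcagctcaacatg
Rplp2 and Rps27 have a pyrimidine run at the start, as have Rpl22l1 and, a little before its start, Rps27l. Rps21 has the ETS core in 2 places and Rps27l in 1, Rps27 has the YY1 core, and the shown stretch of Rpl22 holds none of these letters. These windows and the motifs were chosen after sequences and values had been seen, and the windows of Rplp0, Rpsa and Rpl7l1 were looked at and not shown.

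A promoter window of 250 bases before to 50 after the start was found for 63 of the 83 members, of which 57 are main subunit genes and 6 paralogs. A run of at least 8 C or T from 20 bases before to 30 after the start, on the sense strand, was present in 32 of the 57 main genes (56.1%), against 22.1% of 11006 tested genes with a window. A stricter tract, C at the start base followed by at least 4 C or T, was in 13 (22.8%), against 3.05% of tested genes. The ETS core CCGGAAG, on either strand and anywhere in the window, was in 24 (42.1%, against 19.2%), and the YY1 core AAGATGGC, on either strand, in 5 (8.77%, against 5.06%). TATAAA on the sense strand within 50 bases before the start was in 0 of the 57, against 1.87% of tested genes. Among the 6 paralogs, 1 had TATAAA (Rpl22l1, in the stretch shown above), 2 had the ETS core, 1 the YY1 core, 2 the pyrimidine run and 0 the stricter tract. The pyrimidine searches overlap each other, and the windows of neighbouring genes can overlap. A match is a match of letters and not a measured binding site.

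Library totals lay between 13698362 and 16838448 counts, of which the 83 genes held 285997 to 501511. Libraries with the same number deviated together from their group means in each of the 6 pairs of groups (r = 0.358 to 0.439 across genes, which are not independent replicates). Transcripts of the 12 HSC markers were all detected, and their summed level was 965 and 2090 CPM (counts scaled by library size and TMM factors) in Large 1 and 2, 1902 and 2910 in Medium, 1786 and 3598 in Small, and 1784 and 3914 in All. All 12 had log2 fold changes of Large over Small below 0 (49.9% of all genes were above 0), with a median of -0.72. RNAs of the 17 granulocyte and monocyte markers found were abundant and uneven: 47288 and 24020 CPM in Large 1 and 2, 25440 and 8882 in Medium, 45978 and 13297 in Small, and 57972 and 3807 in All. Within each number the Medium library was below the Large and Small ones in this sum. For Medium over Small 17 of 17 markers had log2 fold changes below 0 (49% of all genes were above 0). For Large over Medium 17 of 17 were above 0 (51.1% of all genes were below 0). The 20 genes of the G1/S and G2/M phases summed to 8073 and 6743 CPM in Large, 5224 and 2999 in Medium, 5827 and 3101 in Small, and 5676 and 2426 in All. Of these genes 20 of 20 had log2 fold changes above 0 for Large over Small (49.9% of all genes), with a median of 0.86. At an unadjusted p under 0.05 in edgeR, 3 of the 20 were higher and 2 of the 12 HSC markers lower in Large than in Small (1.77% of all genes were higher and 1.38% lower). In both lists 0 genes passed an adjusted p of 0.05. Summed levels of erythroid markers ran from 288 to 2458 CPM over the libraries, of mast cell and basophil markers from 34.8 to 1757 (Cma1 at 0 in every library), of T and NK cell markers from 105 to 983, of macrophage and dendritic markers from 223 to 988, of megakaryocyte markers from 158 to 533, of B cell markers from 38.7 to 307, and of endothelial and stromal markers from 108 to 216. The part of these markers in the results below was not tested, and fewer cells of a type and less RNA per cell cannot be told apart in these bulk samples.

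Ribosomal protein transcripts took a larger share of the transcriptome in Medium and Large than in Small HSCs. Their share of TPM (a level per transcript length) was 6.21% and 6.01% in Large 1 and 2, 7.24% and 7.34% in Medium, 5.26% and 5.16% in Small, and 5.56% and 6.36% in All. The 6 size-sorted libraries fell into the order Medium, Large, Small without overlap, and the All libraries differed from each other by more than those of any gate, with All 2 above both Large libraries and All 1 below them. The mean share was 6.11 ± 0.141% in Large, 7.29 ± 0.0726% in Medium, 5.21 ± 0.0708% in Small and 5.96 ± 0.563% in All (SD, n = 2 each). The ratio of means was 1.17 for Large to Small, 1.40 for Medium to Small and 0.838 for Large to Medium. As a share of counts, which weighs long transcripts more, the same genes held 2.80% and 2.63% in Large, 3.25% and 3.19% in Medium, 2.26% and 2.09% in Small, and 2.498% and 2.66% in All, in the same order of gates. No test of the share was made. An exact test of 2 against 2 libraries cannot give a two-sided p under 0.333.

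**Figure D1:**
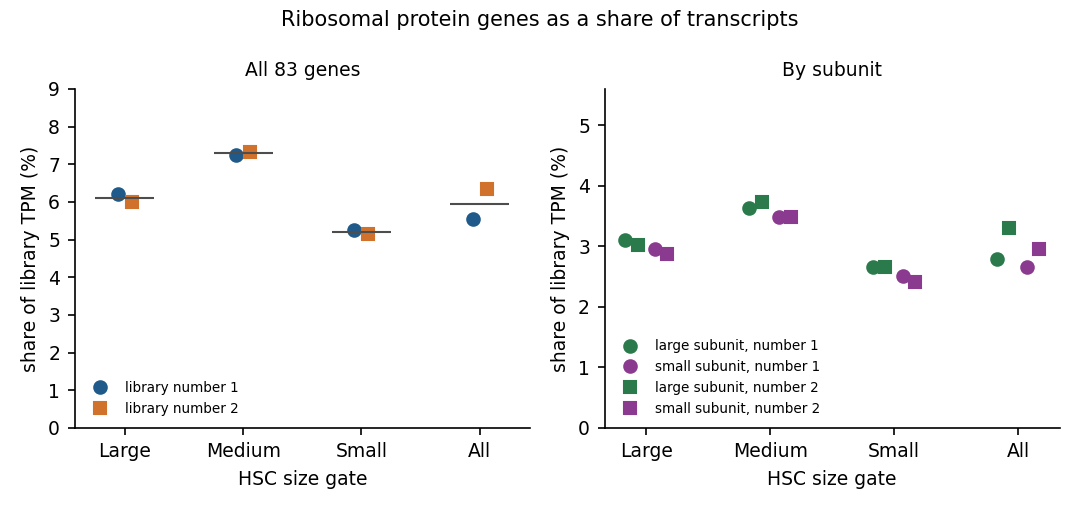
Share of each library's TPM total held by the 83 ribosomal protein genes (left) and by the large and small subunit genes apart (right), in percent, for the 4 groups. Each symbol is a library, with its number given by shape, and bars in the left panel are the means of 2 libraries. Both Medium libraries (7.24% and 7.34%) lie above both Large libraries (6.21% and 6.01%), and both Large libraries above both Small libraries (5.26% and 5.16%).

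Single ribosomal protein genes differed widely in level. Mean TPM over the 8 libraries was lowest among the 77 main genes for Rpl12, at 32.4 (named after its value was seen), and the median was 677, against a median of 12.4 over all 16066 tested genes. The median was 609 TPM for large subunit and 807 TPM for small subunit genes. Among the most abundant were Rps19 (2817 TPM on average), needed for maturation of the small subunit and the gene most often mutated in Diamond-Blackfan anemia, and Rps25 (2612 TPM). The lowest were the paralogs Rpl10l at 0, Rpl3l at 0.672 and Rpl39l at 0.951 TPM on average.

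Large and Small HSCs differed in the same direction at nearly every ribosomal protein gene, by a modest amount. The fitted log2 fold change, Large over Small, was above 0 for 82 of 82 tested members (49.9% of all 16066 genes), with a median of 0.44 against 0 for all genes. The median was 0.42 within the libraries numbered 1 and 0.46 within those numbered 2. In log2 CPM 81 members were higher in Large within both numbers, all but Rpl5, against 32.9% of all genes. In TPM this did not hold for Rpl7l1, lower in Large within both numbers, or for Rps27, lower within number 2. In CPM both Large libraries lay above both Small libraries for 75 members (17.7% of all genes). The 7 members that overlapped were Rpl5, Rpl10, Rpl29, Rpl38, Rps7, Rpl7l1 and Rps27l. The 82 include the barely detected paralogs Rpl39l and Rpl3l. Among the 77 main genes alone, 77 had a log2 fold change above 0 (49.9% of all genes). For 72 of these 77 both Large libraries lay above both Small libraries (17.7% of all genes). In edgeR's quasi-likelihood test 0 of 82 members passed an adjusted p of 0.05 (0% of all genes, smallest adjusted p = 0.975). DESeq2 called 0 members (0.0436% of all genes were called higher), and limma on log2(TPM + 1) called 0. At an unadjusted p under 0.05 there were 16 members, all higher in Large (1.77% of all genes were higher at that p). That count depended on single libraries. The median log2 fold change was 0.31 without Large 1, 0.31 without Small 2, 0.53 without Large 2 and 0.56 without Small 1. With the replicate number as a block edgeR gave 63 members at that p (9.44% of all genes) and again called 0, with a smallest adjusted p of 0.0737 among members. DESeq2 with the replicate block, tried after the other fits were seen, called 47 members higher at an adjusted p under 0.05 (4.68% of all genes were called higher).

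The 3 largest differences between Large and Small among large subunit genes were those of Rplp2, Rpl35a and Rplp1. Rplp1 and Rplp2 belong with Rplp0 to the P stalk, the flexible arm of the large subunit that recruits and activates the translational GTPases. Rplp1, an acidic stalk protein (chromosome 9, 61913284 to 61914542, minus strand), had 307 and 254 CPM in Large, 341 and 325 in Medium, 197 and 163 in Small, and 243 and 251 in All. The 3 gates did not overlap, with Medium highest and Small lowest, and the log2 fold change of Large over Small was 0.64 (SE 0.19, unadjusted p = 0.0126, edgeR adjusted p = 0.975). Its partner Rplp2 (chromosome 7, 141447370 to 141451585, plus strand) had 284 and 213 CPM in Large, 280 and 235 in Medium, 191 and 121 in Small, and 212 and 181 in All. Large and Medium overlapped and both lay above Small, with a log2 fold change of Large over Small of 0.67 (SE 0.28). Rplp0, which anchors the stalk to the ribosomal RNA (chromosome 5, 115559467 to 115563727, plus), had 1448 and 1278 CPM in Large, 1213 and 1269 in Medium, 1115 and 931 in Small, and 1127 and 1035 in All. It was 1 of only 2 members, with Rpl4, whose Large libraries both lay above both Medium libraries, and its log2 fold change of Large over Small was 0.41 (SE 0.18). Rpl35a (chromosome 16, 33056453 to 33060189, plus), a large subunit protein mutated in some patients with Diamond-Blackfan anemia, had 325 and 228 CPM in Large, 317 and 256 in Medium, 215 and 136 in Small, and 253 and 190 in All. Large and Medium overlapped above Small, with a log2 fold change of Large over Small of 0.65 (SE 0.31).

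The smallest differences in the large subunit were those of Rpl5, Rpl13 and Rpl3. Rpl5 (chromosome 5, 107900502 to 107909005, plus), which carries the 5S RNA into the ribosome together with Rpl11 and with it inhibits the p53 regulator Mdm2 when assembly fails, had 28.6 and 36.04 CPM in Large, 25.01 and 28.8 in Medium, 22.7 and 36.6 in Small, and 27.2 and 46.3 in All. Its libraries numbered 2 were the higher ones in all 4 groups, the gates overlapped, and the log2 fold change of Large over Small was 0.12 (SE 0.37). Rpl11 (chromosome 4, 136028265 to 136053428, minus), its partner, had 98.4 and 95.4 CPM in Large, 110 and 105 in Medium, 77.9 and 68.6 in Small, and 106 and 83.8 in All, with Medium above Large above Small and a log2 fold change of Large over Small of 0.40 (SE 0.20). Of the transcripts for the 2 proteins of the 5S complex, those of Rpl11 were thus ordered by gate without overlap. Those of Rpl5 showed no order that can be read, and the difference between the genes was not tested. Rpl13 (chromosome 8, 123102350 to 123105244, plus) and Rpl3, a core protein at the peptidyl transferase center (chromosome 15, 80077791 to 80091868, minus), had log2 fold changes of Large over Small of 0.15 (SE 0.18) and 0.16 (SE 0.19).

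**Figure D2:**
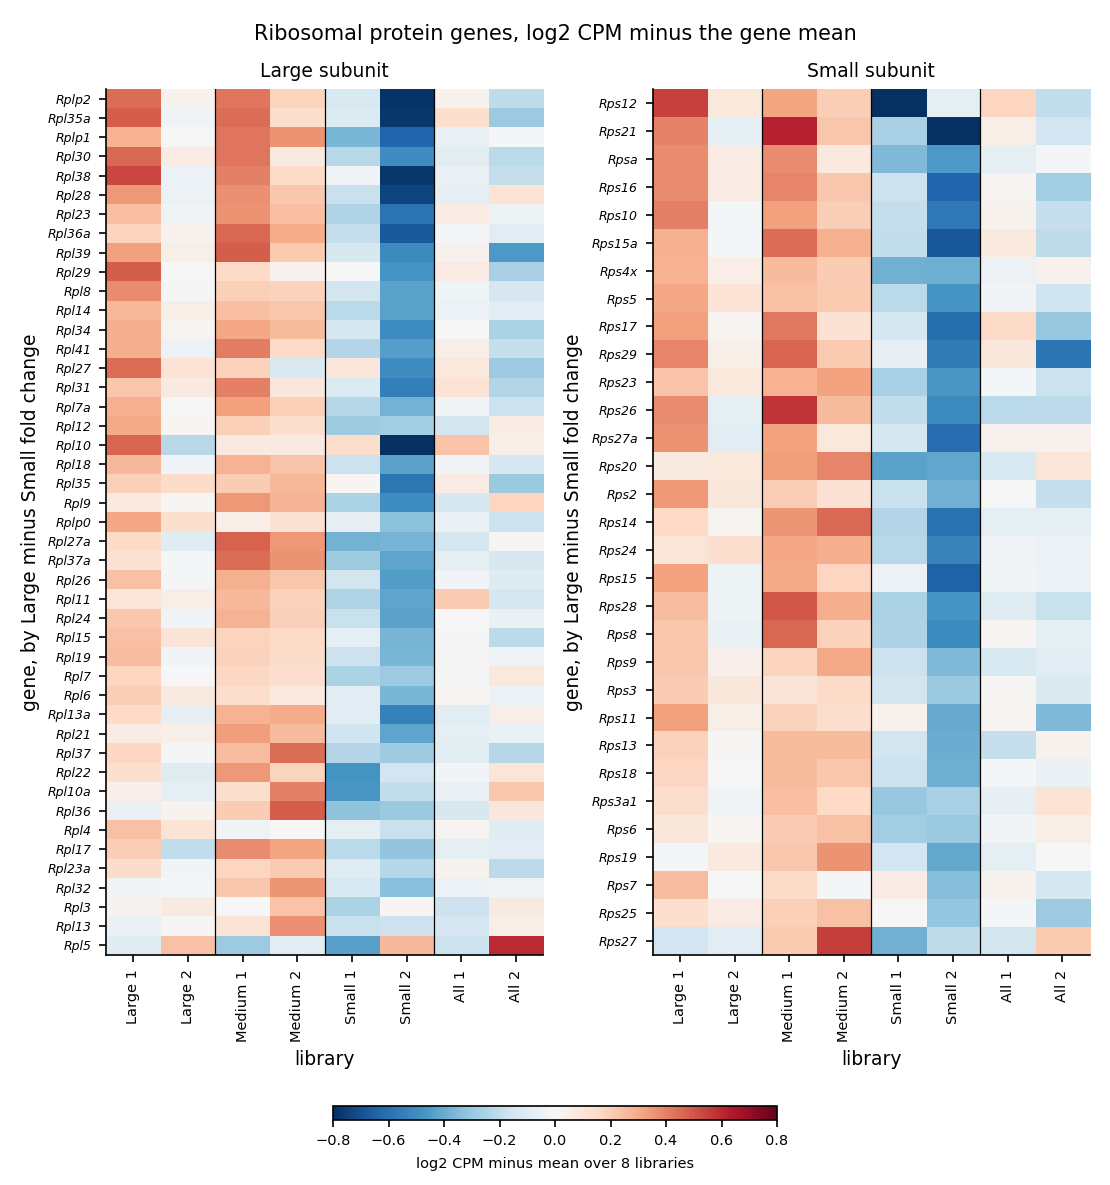
Level of main ribosomal protein genes in each library, as log2(CPM + 0.1) minus the gene's mean over the 8 libraries (color scale, cut at 0.8 on either side), for large (left) and small (right) subunit genes. Genes run down the page by their log2 fold change of Large over Small, from Rplp2 (0.67) to Rpl5 (0.12) and from Rps12 (0.82) to Rps27 (0.17). The Medium columns are mostly red and the Small columns mostly blue, and Small 2 is the lowest library for most genes.

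In the small subunit the largest differences between Large and Small were those of Rps12, Rps21 and Rpsa. Rps12, a protein of the beak of the 40S subunit (chromosome 10, 23785183 to 23787275, minus), had 27.7 and 20.1 CPM in Large, 23.6 and 21.8 in Medium, 9.14 and 18.0 in Small, and 21.4 and 16.5 in All. Its log2 fold change of Large over Small was 0.82 (SE 0.41), being 1.59 within number 1 and 0.16 within number 2, with Small 1 the lowest library. Rps21 (chromosome 2, 180257377 to 180258445, plus) had 86.2 and 62.5 CPM in Large, 101 and 76.5 in Medium, 54.8 and 37.6 in Small, and 67.8 and 59.0 in All. Large and Medium overlapped above Small, and its log2 fold change was 0.69 (SE 0.29) for Large over Small and 0.94 (SE 0.29) for Medium over Small, the highest value of that comparison among main genes. Rpsa, which joins the small subunit late and also serves as a laminin receptor (chromosome 9, 120127689 to 120132369, plus), had 890 and 717 CPM in Large, 891 and 723 in Medium, 535 and 498 in Small, and 650 and 676 in All. Large and Medium overlapped and both lay above Small, with log2 fold changes over Small of 0.64 for Large (SE 0.20) and 0.64 for Medium (SE 0.20).

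The smallest differences in the small subunit were those of Rps27, Rps25 and Rps7. Rps27, a zinc finger protein on the back of the 40S subunit (chromosome 3, 90212522 to 90213651, minus), had 238 and 249 CPM in Large, 307 and 390 in Medium, 203 and 231 in Small, and 240 and 306 in All. Its Medium libraries stood above all Large and Small libraries, and its log2 fold change was 0.17 (SE 0.21) for Large over Small but 0.68 (SE 0.21) for Medium over Small. Rps25, needed for initiation at some viral internal entry sites (chromosome 9, 44407139 to 44410427, plus), had a log2 fold change of Large over Small of 0.24 (SE 0.19). Rps7, another Diamond-Blackfan gene (chromosome 12, 28630854 to 28635953, minus), had 82.8 and 70.1 CPM in Large, 77.6 and 69.1 in Medium, 73.1 and 55.3 in Small, and 71.1 and 63.5 in All. Its libraries overlapped between the gates, with a log2 fold change of Large over Small of 0.25 (SE 0.23). Rps19 (chromosome 7, 24884371 to 24889806, plus) had 827 and 877 CPM in Large, 967 and 1065 in Medium, 749 and 628 in Small, and 786 and 830 in All, so that the gates did not overlap in CPM, with log2 fold changes over Small of 0.31 for Large (SE 0.18) and 0.56 for Medium (SE 0.18).

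Medium against Small was the comparison with the largest median among the 3 between gates. Of 82 members 80 had a log2 fold change above 0 (49% of all genes), all but Rpl5 and Rpl7l1, and the median was 0.57 (0.48 within number 1 and 0.67 within number 2) against -0.01 for all genes. Both Medium libraries lay above both Small libraries for 75 members (16.6% of all genes). In edgeR's test 0 members passed (0% of all genes, smallest adjusted p = 1), with 53 higher at an unadjusted p under 0.05 (2.81% of all genes). With the replicate block it was 72 (6.11% of all genes). Among the 77 main genes alone 76 were above 0 (49% of all genes) and 51 were higher at that p (2.81%). For 72 of these 77 both Medium libraries lay above both Small libraries (16.6% of all genes). Rpl39l, at 0 in both Small libraries, passed the filter only through other groups and is not read as a result. The count of 53 depended on single libraries. The median was 0.44 without Small 2, 0.68 without Small 1, 0.52 without Medium 1 and 0.59 without Medium 2. Rplp1 had the smallest p among members (0.00252, log2 fold change 0.89, SE 0.19). DESeq2 called 3 members higher (0.243% of all genes were called higher), Rps20, Rpl37a and Rplp1, with adjusted p of 0.0222, 0.0371 and 0.0498, and limma on log2(TPM + 1) called 0. Rps20 and Rpl37a are named because these were the few that passed, after their values were seen. DESeq2 with the replicate block, tried later, called 61 members (1.72% of all genes were called higher).

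Large against Medium showed a smaller difference in the other direction. The log2 fold change of Large over Medium was below 0 for 64 of 82 members (51.1% of all genes), and the median was -0.12 (-0.05 within number 1 and -0.20 within number 2) against -0.01 for all genes. Both Large libraries lay below both Medium libraries for 33 members (17.2% of all genes) and above them for 2, Rpl4 and Rplp0 (18.3% of all genes). Among the 77 main genes alone, 62 had a log2 fold change below 0 (51.1% of all genes). For 31 of these 77 both Large libraries lay below both Medium libraries (17.2% of all genes). In edgeR's test 0 members passed (0% of all genes, smallest adjusted p = 0.989), and by DESeq2 and by limma on log2(TPM + 1) 0 passed. At an unadjusted p under 0.05 only Rps27 was lower in Large (0.996% of all genes were lower at that p), with a log2 fold change of -0.51 (SE 0.21). That count depended on single libraries. With the replicate block 11 members reached that p (6.64% of all genes were lower). DESeq2 with the replicate block, tried later, called 3 members lower in Large, among them Rps27 and Rpl37a (2.53% of all genes were called lower). The median depended on 1 library, at -0.02 without Large 2 and -0.24 without Large 1, and was -0.20 without Medium 2.

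The order of the 3 gates by mean CPM was Medium, then Large, then Small for 66 of 82 members (80.5%), against 17.1% of all tested genes. For 33 members (40.2%) the gates did not overlap in this order, with both Medium libraries above both Large and both Large above both Small, against 2.17% of all genes. Small had the lowest mean of the 4 groups for 77 members (93.9%, against 27.1% of all genes), and Medium the highest for 66 (80.5%, against 21.5%). The 82 include the barely detected paralogs Rpl39l and Rpl3l. Among the 77 main genes alone, 64 (83.1%) had this order of means (17.1% of all genes). For 31 of these 77 (40.3%) the gates did not overlap in it (2.17% of all genes). Small had the lowest mean for 75 main genes (27.1% of all genes) and Medium the highest for 64 (21.5%). These counts describe 8 libraries and are not a test.

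**Figure D3:**
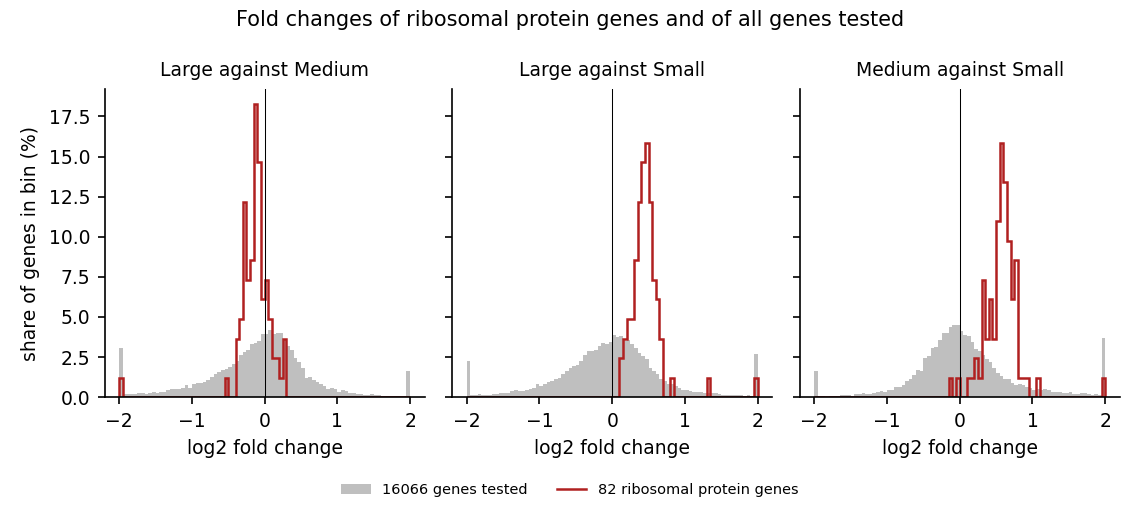
Distribution of log2 fold changes (horizontal axis) over the 82 tested ribosomal protein genes (red outline) and over all 16066 tested genes (gray), as a percentage of genes per bin (vertical axis), for Large against Medium, Large against Small and Medium against Small. The end bins hold all values beyond 2 on either side, which among the ribosomal protein genes holds only the barely detected paralog Rpl39l. The red outline centers near -0.12, 0.44 and 0.57 in the 3 panels, and the gray near 0.

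HSCs not separated by size lay between Small and Medium. Small against All had 78 of 82 log2 fold changes below 0 (53.3% of all genes) and a median of -0.25 (-0.16 within number 1 and -0.33 within number 2), against -0.04 for all genes, with both Small libraries below both All libraries for 51 members (14.8% of all genes). Medium against All had 80 above 0 (47.8% of all genes), a median of 0.31 (0.30 and 0.33) against -0.02 for all genes, and 66 members with both Medium libraries above both All libraries (11.3% of all genes). Large against All had 75 above 0 (47.5% of all genes), a median of 0.18 (0.24 and 0.12) against -0.03, and 38 members with both Large libraries above both All libraries (15.8% of all genes). These comparisons share the All libraries. In edgeR 0 members passed in any of the 3 (0% of all genes in each), with 3 lower at an unadjusted p under 0.05 in Small against All (Rplp1, Rps20 and Rpl39l, 2.32% of all genes), 6 higher in Medium against All (0.79%) and 0 higher in Large against All (1.34%). Rpl39l was listed at 0 in both Small libraries and passed the filter on low counts only through other groups, so its p is not read as a result. Among the 77 main genes 2 were lower at that p in Small against All (2.32% of all genes). For 49 of these 77 both Small libraries lay below both All libraries (14.8% of all genes). Both Medium libraries lay above both All libraries for 65 (11.3%), and both Large libraries for 37 (15.8%). DESeq2 called 0 in each (0.131%, 0.0124% and 0.0311% of all genes in the same directions), and limma on log2(TPM + 1) called 0. With the replicate block the counts at that p were 33, 48 and 15 (5.56%, 2.32% and 10.7% of all genes), and DESeq2 with that block, tried later, called 0 lower in Small, 2 higher in Medium (Rpl37a and Rps28) and 7 higher in Large against All (0.778%, 0.0436% and 6.13% of all genes). The median of Small against All was -0.12 without Small 2 and -0.16 without All 1, and that of Large against All was 0.08 without Large 1 and 0.30 without Large 2. That of Medium against All was 0.27 without Medium 1 and 0.40 without All 1. The counts at an unadjusted p also turned on single libraries.

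The large and small subunits kept nearly the same proportion in every library. Large subunit genes held 3.11% and 3.03% of TPM in Large, 3.63% and 3.74% in Medium, 2.65% and 2.66% in Small, and 2.80% and 3.30% in All. Small subunit genes held 2.96% and 2.88% in Large, 3.48% and 3.49% in Medium, 2.503% and 2.42% in Small, and 2.66% and 2.96% in All. Their ratio lay between 1.04 and 1.11 over the 8 libraries. With each gene centered on its mean over the libraries, the median deviation of large minus small subunit genes in log2 CPM was -0.02 and -0.02 in Large, -0.04 and -0.01 in Medium, 0.01 and 0.03 in Small, and -0.01 and 0.03 in All. The 4 Large and Medium libraries were below 0 and both Small libraries above it, by at most 0.04 on the log2 scale. The median log2 fold change of Large over Small was 0.41 for 46 large subunit genes and 0.50 for 31 small subunit genes. For Medium over Small it was 0.56 and 0.63, and for Large over Medium -0.13 and -0.11. Both Large libraries lay above both Small libraries for 42 of 46 and 30 of 31 genes (17.7% of all genes), and the same counts held for Medium above Small (16.6% of all genes). No test of the difference between subunits was made.

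Groups of proteins with a shared place in the ribosome all had medians above 0 over Small, and differences between the groups were not tested. Genes of the P stalk had a median log2 fold change of Large over Small of 0.64 (3 genes), of the 40S beak (Rps10, Rps12 and Rps27a) 0.58, of the mRNA entry site (Rps2 and Rps3) 0.43, of the peptide exit tunnel (Rpl17, Rpl19, Rpl23a, Rpl26, Rpl31, Rpl35 and Rpl39) 0.40, and of the 5S complex (Rpl5 and Rpl11) 0.26, against 0.44 for all 82 members. For Medium over Small the same groups had medians of 0.73, 0.63, 0.39, 0.54 and 0.21, against 0.57. The 10 genes of Diamond-Blackfan anemia had 0.50 for Large over Small and 0.63 for Medium over Small. In these groups 0 genes passed edgeR (0% of all genes), and at an unadjusted p under 0.05 for Large over Small there were 2 of 3 P stalk, 1 of 3 beak, 1 of 2 mRNA entry, 0 of 7 exit tunnel, 0 of 2 5S and 2 of 10 Diamond-Blackfan genes, all higher in Large (1.77% of all genes were higher at that p).

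The paralogs fell into 2 kinds. Rpl22l1, Rpl7l1 and Rps27l were expressed well above 1 TPM in all 8 libraries, whereas Rpl39l reached 1 TPM in 3 libraries, Rpl3l in 2 and Rpl10l, an intronless and testis-enriched copy of Rpl10, in 0. Rpl39l (chromosome 16, 10170226 to 10174911, plus), known from male germ cells, was listed at 0.36 and 0.36 TPM in Large, 2.59 and 1.22 in Medium, 0 in both Small libraries, and 2.56 and 0.52 in All. Rpl3l (chromosome 17, 24727820 to 24736143, plus), the form of striated muscle, was listed at 0.92 and 1.28 TPM in Large, 0.62 and 1.25 in Medium, 0.64 and 0.34 in Small, and 0.33 and 0 in All. At these counts no order between gates can be read. Their main genes Rpl39, Rpl3 and Rpl10 had 289, 1335 and 137 TPM on average.

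Rpl22l1 (chromosome 3, 28805436 to 28807424, plus), a paralog whose protein can replace Rpl22 in the ribosome, was above its main gene Rpl22 (chromosome 4, 152325742 to 152334071, plus) in all 8 libraries. Rpl22l1 had 306 and 312 TPM in Large, 372 and 384 in Medium, 221 and 289 in Small, and 266 and 436 in All. Rpl22 had 284 and 220 TPM in Large, 325 and 272 in Medium, 218 and 193 in Small, and 248 and 230 in All. As a percentage of Rpl22, Rpl22l1 was at 108 and 142 in Large, 114 and 141 in Medium, 101 and 149 in Small, and 107 and 189 in All. The libraries numbered 2 had the higher ratio in all 4 groups, and the gates overlapped. The log2 ratio differed by 0.01 between Large and Small (means 0.31 and 0.30).

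Rps27l (chromosome 9, 66946086 to 66949516, plus), a p53 target that differs from Rps27 in a few residues, was below its main gene. It had 875 and 598 TPM in Large, 765 and 603 in Medium, 697 and 408 in Small, and 650 and 359 in All. Rps27 had 971 and 1110 TPM in Large, 1382 and 1802 in Medium, 906 and 1186 in Small, and 1019 and 1531 in All. As a percentage of Rps27, Rps27l was at 90.2 and 53.9 in Large, 55.3 and 33.4 in Medium, 77.0 and 34.4 in Small, and 63.8 and 23.4 in All. Here the libraries numbered 1 had the higher ratio in all 4 groups, and within each number Large had the highest. The log2 ratio was higher by 0.44 in Large than in Small (means -0.52 and -0.96), and this value was -0.14 without Small 2 and 1.02 without Small 1.

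Rpl7l1 (chromosome 17, 46773907 to 46782672, minus), which in yeast corresponds to a factor of large subunit assembly and not to a protein of the mature ribosome, varied less over the libraries than its main gene Rpl7 (chromosome 1, 16101295 to 16104662, minus). It had 141 and 131 TPM in Large, 134 and 136 in Medium, 144 and 139 in Small, and 128 and 136 in All, a narrow range with no order of gates. Rpl7 had 1114 and 1066 TPM in Large, 1263 and 1260 in Medium, 861 and 952 in Small, and 992 and 1322 in All. As a percentage of Rpl7, Rpl7l1 was at 12.6 and 12.3 in Large, 10.6 and 10.8 in Medium, 16.8 and 14.6 in Small, and 12.9 and 10.3 in All. The 3 gates did not overlap, with Small highest and Medium lowest, and the log2 ratio of Large was lower by 0.33 than that of Small (difference -0.33, means -3.00 and -2.68).

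None of the 3 ratios passed a test of Large against Small. In an exact two-sided permutation test over the 90 ways to place the 6 size-sorted libraries into gates of 2, whose smallest possible p is 0.0222, p was 0.933 for Rpl22l1, 0.244 for Rpl7l1 and 0.511 for Rps27l (0.933, 0.733 and 0.767 adjusted over the 3 pairs). With permutations only within replicate numbers, whose smallest p is 0.0556 and which therefore cannot pass 0.05, p was 0.833, 0.333 and 0.333. The order of Rpl7l1 seen above was not what this test asks, since its statistic uses Large and Small alone.

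**Figure D4:**
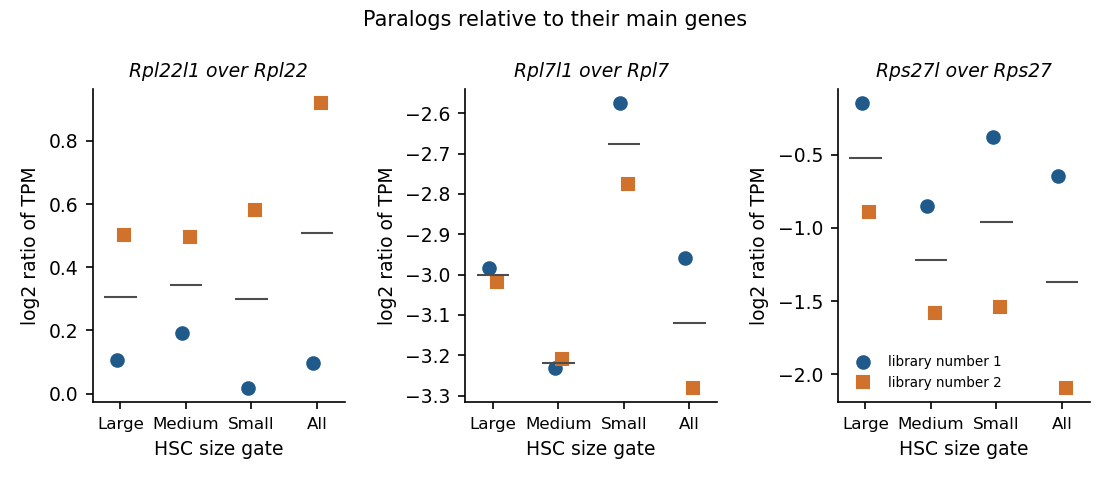
Log2 ratio of TPM of each expressed paralog to its main gene (vertical axes, each with its own range) in the 4 groups, for Rpl22l1, Rpl7l1 and Rps27l. Symbols are libraries by number and bars are means of 2 libraries. Library number separates the Rpl22l1 and Rps27l ratios in every group, and for Rpl7l1 the gate means are -3.00 in Large, -3.22 in Medium and -2.68 in Small.

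Ribosomal protein genes have many near-identical processed copies in the mouse genome, between which reads were split by estimation. For 59 members the annotation holds 281 copies named with ps after the member's symbol. For 6 members, Rpl10, Rpl27, Rpl28, Rpl31, Rps12 and Rps23, a copy was given more counts than the gene itself, as with Rpl10, where copies held 85.6% of the counts of gene and copies together, and Rps12 with 61.9%, so the levels of these 6 are uncertain. All the copies together held 0.274% to 0.419% of a library's counts. With copies added to their members the medians were 0.44 for Large over Small, -0.11 for Large over Medium and 0.56 for Medium over Small. Without the 6 members, the medians were 0.42, -0.13 and 0.57.

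Other genes of the translation machinery did not all follow the order of gates seen in the ribosomal protein genes. Rack1, a scaffold protein on the small subunit (chromosome 11, 48800332 to 48806434), had 909 and 689 CPM in Large, 776 and 673 in Medium, 623 and 443 in Small, and 662 and 579 in All, with Large and Medium overlapping above Small. The 15 other mRNAs known to start with a pyrimidine tract had medians of 0.28, 0.17 and 0.03 for Large over Small, Medium over Small and Large over Medium. Among them the elongation factor subunit Eef1b2 (chromosome 1, 63176825 to 63180486) had 325 and 281 CPM in Large, 317 and 311 in Medium, 200 and 203 in Small, and 242 and 265 in All. Eef1a1, the elongation factor that brings tRNA to the ribosome, had a log2 fold change of Large over Small of 0.03 (SE 0.22). In this list 0 genes passed edgeR (0% of all genes), and at an unadjusted p under 0.05 there were 3 of 15 higher in Large than in Small (1.77% of all genes).

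The 29 genes of ribosome assembly and the nucleolus had medians of 0.31 for Large over Small, -0.03 for Medium over Small and 0.29 for Large over Medium. So Large was highest for this list. For Large over Medium 28 of 29 were above 0, where 64 of 82 ribosomal protein genes were below 0 (51.1% of all genes were below 0). At an unadjusted p under 0.05 in edgeR 0 of the 29 differed between Large and Medium (0.996% of all genes were lower). The difference between these lists was not tested. Npm1, a histone chaperone of the nucleolus that is also among the 15 genes above, had 959 and 635 CPM in Large, 821 and 473 in Medium, 529 and 405 in Small, and 713 and 506 in All. Ncl, nucleolin, had a log2 fold change of Large over Small of 0.59 (SE 0.26), and the snoRNP protein Nop56 0.42 (SE 0.20). The 12 genes of control over ribosomal protein mRNA, which include Larp1, Mtor and Myc, had medians of -0.12, -0.08 and 0.02 in the 3 comparisons, Large over Small, Medium over Small and Large over Medium. Myc, a transcription factor that drives ribosome production, had 286 and 187 CPM in Large, 280 and 145 in Medium, 433 and 174 in Small, and 239 and 89.3 in All, with the libraries numbered 2 lower in all groups. In both lists 0 genes passed edgeR (0% of all genes). At an unadjusted p under 0.05, 2 of 29 and 1 of 12 were higher and 0 of 29 and 1 of 12 lower in Large than in Small (1.77% of all genes were higher and 1.38% lower).

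Transcripts of ribosomal protein genes are short, with a median length of 937 bases against 2796 for all tested genes and a median GC content of 51.8% against 49.5%. With trends of log2 CPM in transcript GC content and length removed from each library, the median log2 fold changes were 0.25 for Large over Small, -0.07 for Large over Medium and 0.32 for Medium over Small, and both Large libraries lay above both Small libraries for 40 members (12.9% of all genes). They were also smaller against All, at -0.13 for Small, 0.18 for Medium and 0.10 for Large. On the deposited log2(TPM + 1) scale the median for Large over Small was 0.28 and for Large over Medium -0.23, where all genes had medians of -0.11 and -0.09, and both Large libraries lay above both Small libraries for 64 members (12.1% of all genes).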

How the data were processed

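RNA was sequenced from 8 libraries of sorted mouse HSCs, 2 each of Large, Medium, Small and All, grouped by their labels. STAR 2.5.3a, RSEM 1.3.0, SAMtools 1.3 and the build mm10 are listed per the submitters' processing notes. The sources used here do not state the annotation release or the strand setting. The deposited estimated counts were already whole numbers, and the deposited log2 values are log2(TPM + 1), from which TPM was recovered. Gene symbols and coordinates are those of GENCODE M21 (GRCm38), which named 50376 of 50686 gene IDs and left 310 unnamed.

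Counts were tested with edgeR 4.0.16 (R 4.3.3, robust quasi-likelihood, TMM factors, minimum count 10 in filterByExpr, group as the only term, 4 residual degrees of freedom) over 16066 genes, with Benjamini-Hochberg adjustment at 0.05. Log2 CPM used a prior count of 2, and paralog ratios a pseudocount of 0.1 TPM. Alternatives used DESeq2 1.42.0, limma 3.58.1 and loess trends of span 0.3 in GC content and length. Library totals of 13698362 to 16838448 counts limit the precision of low genes, and 3 counts were taken as the floor. The fits were tested on simulated data for Large against Small. With the spread of the data, 0% of 100 genes changed 2-fold and 9% of 100 changed 4-fold were recovered, with 0 false calls. With a much smaller spread 96% and 97% were recovered, with 14 false calls over 15306 genes. The median log2 fold change of the members, 0.44, was below that of the genes changed 2-fold (0.989). The changed genes were drawn at random and not matched to the members in level. Libraries were simulated without the shared deviation of same-numbered ones. The recovery therefore does not give the rate at which members would be recovered. A count of 0 members passing cannot by itself show that a difference of this size is absent.

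The labels do not say what the replicate number stands for. Deviations of same-numbered libraries were correlated in all 6 pairs of groups (r = 0.358 to 0.439 across genes), so the number was treated as pairing the libraries and used as a block in an alternative. Members, gene lists and tests were chosen with earlier results of these data known. Named genes are the paralogs and their main genes, the P stalk and 5S genes, the 3 largest and 3 smallest Large over Small differences in each subunit, the 3 highest and 3 lowest mean TPM, members called by any test, Rps19, Rpl11, and up to 4 of the most abundant genes of each other list. Libraries of treated HSCs named in the series' design are not analysed here. Some genes that this rule names are not reported here.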

Additional observations from a re-analysis of the deposited data

How the results depend on the processing

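The median log2 fold change of the 82 members kept its direction in every comparison under each of 25 other settings (scaling, filters, tests, unit, replicate block, trends, copies and single libraries left out). It moved by more than the spread between replicates when trends in GC content and length were removed, to 0.32 for Medium over Small and 0.18 for Medium over All, with the replicate block and without it. Leaving out 1 library at a time gave 0.271 to 0.398 for Medium over All. With those trends removed, members whose libraries did not overlap numbered 40 for Large above Small (12.9% of all genes), 18 for Large below Medium (14.7%), 31 for Small below All (11.5%) and 9 of 82 for Large above All (16.6%). With library totals in place of TMM factors, 57 members had Large below Medium (23.5% of all genes), and on log2(TPM + 1) 56 did (21.2%), while 20 had Large above All (13.4%). As a share of counts the ratio was 1.25 for Large to Small and 1.48 for Medium to Small.

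With the replicate block edgeR called 0 members in each comparison, as without it. DESeq2 called 3 members in Medium over Small. DESeq2 with the replicate block, chosen after seeing the data, called 47 in Large over Small, 3 in Large below Medium, 61 in Medium over Small, 2 in Medium over All and 7 in Large over All, and the block changed no other call. The number of members at an unadjusted p under 0.05 moved by over 1.5 times under 13 of 22 settings for Large against Small, 16 for Large against Medium, 7 for Medium against Small, 13 for Small against All, 13 for Medium against All and 7 for Large against All. With the replicate block it was 63, 11, 72, 33, 48 and 15 in the same order (9.44%, 6.64%, 6.11%, 5.56%, 2.32% and 10.7% of all genes in the members' direction).

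The median deviation of large minus small subunit genes, taken per library in log2 CPM, differed by 0.00 between Large and Medium (Large minus Medium). This difference is not that of the median fold changes, and it reversed to -0.016 on log2(TPM + 1). It ran from -0.015 to 0.016 with 1 library left out, and was -0.00064 without Large 2. The Large minus Small log2 ratio of Rpl22l1 to Rpl22 ran from -0.275 to 0.287 with 1 library left out, and was -0.19 without Large 2. That of Rps27l to Rps27 ran from -0.143 to 1.02, and that of Rpl7l1 to Rpl7 stayed below 0, from -0.43 to -0.23. The causes were not tested.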

Other observations

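The libraries numbered 2 had lower ribosomal protein transcript levels than those numbered 1 in the same group for many members. In log2 CPM 42 of 82 members were lower in number 2 in all 4 groups, against 23.1% of all 16066 tested genes, and 7 were higher in all 4, against 22.9%. The median difference, number 2 minus number 1, was -0.16 for the members and -0.00 for all genes. Rps27l had the largest mean difference on the low side, at -0.78, whereas its main gene Rps27 had 0.24, and Rpl5 (0.50) was also higher in number 2 in 4 of 4 groups. The labels do not say what the number stands for.

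Across the 77 main genes, the log2 fold change of Large over Small had a Spearman correlation of -0.19 with mean level, 0.10 with transcript GC content and -0.23 with transcript length. These are descriptions over genes that share the same 8 libraries.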
